A study of Talinum fruticosum with 24 samples.

Results

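The genes described here are 108 of the 22079 Arabidopsis thaliana gene identifiers in the deposited count table, namely those whose short description names an RNA-binding protein of the RRM/RBD/RNP motif family and nothing more specific. They were chosen by that description, a rule that reads no count, but the set was taken up with earlier results of these data known. The RNA recognition motif (RRM) is a small folded domain that binds single-stranded RNA, and it is the most common RNA-binding domain of eukaryotes. In plants, RRM proteins act at every step in the life of a transcript: splicing, polyadenylation, export, translation and decay in the nucleus and cytoplasm, and the editing, processing and stability of organelle transcripts. The shared description therefore names a domain and not a task. Roles given below are those known in Arabidopsis. They are named as background, since reads of Talinum transcripts were assigned to Arabidopsis identifiers.

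The RNA sequenced came from mature leaves of a herb, Talinum triangulare (Talinum fruticosum in the labels), which shifts from C3 photosynthesis to crassulacean acid metabolism (CAM, nocturnal CO2 uptake into malic acid) under drought. All plants were grown well watered for 28 d and then droughted for 12 d. The CAM leaves were taken at that point, and the reC3 leaves came from plants that were watered again for 2 d. Each mode was sampled 4 times, at zeitgeber time 6 h (midday, MD), 12 h (dusk, or end of day, ED), 18 h (midnight, MN) and 24 h (end of night, EN), giving 8 groups of 3 biological replicates per the labels. No group was free of drought, so a higher level in CAM cannot be told apart from a fall on re-watering. Libraries of MD and MN had been deposited before, those of ED and EN were made later, so contrasts between times were kept within MD and MN or within ED and EN. The average over the 4 times and the interaction of mode and time span both sets of libraries, and in the interaction time and set cannot be told apart. In whole leaves, fewer cells of a type and less RNA per cell cannot be told apart.

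The 24 libraries held 4310225 to 8756145 counts on 14733 to 15367 genes. The mean correlation of a library with the other 2 of its group, across genes, ran from 0.941 to 0.986 and was lowest in reC3 EN replicate 1, with replicate 2 of that group at 0.952. Mesophyll markers, which stand for the labelled tissue, were abundant (3 genes tested of 6, summed level 30695 to 90148 CPM in CAM and 14313 to 189783 CPM in reC3). In CAM 2 of these 3 were lower at MD and at EN (21.3% and 29.2% of all genes), 1 was higher at ED (21.5%), 0 were called at MN, and 1 was lower in the average (32.5%). Markers of other cell types also moved with mode. In the average over the 4 times, 5 of 6 markers of dividing cells tested were lower in CAM (summed level 12.7 to 27.8 CPM in CAM and 21.3 to 160.2 CPM in reC3). The same held for 5 of 7 vascular markers (286 to 856 and 612 to 1503 CPM), 4 of 6 guard cell markers (33.8 to 226 and 48.0 to 148 CPM) and 4 of 4 epidermis markers (245 to 562 and 365 to 869.9 CPM). Of the remaining markers, 1 vascular and 1 guard cell gene were higher in CAM, and no marker tested was at 0 throughout a mode. Over all genes tested, 32.5% were lower and 32.3% higher in the average. The part of cell composition in the values below was not tested.

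Of the 108 RRM genes, 24 had no count in any library and 8 had too few counts to be tested, 82 at most over the 24 libraries. The remaining 76 were tested, the least abundant with 199 counts, and 66 of them averaged at least 5 CPM (counts per 1000000 of the library size after TMM scaling, which sets the typical gene equal between libraries). A library held counts on 77 to 81 of the genes. Together they took 0.216% to 0.549% of its counts. Levels are not set against each other between genes, because transcript lengths were not used. Reads of near-identical family members may have been split or shared between identifiers, and the library kit named in the labels does not mark strand, so reads of overlapping antisense transcripts cannot be told apart.

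The summed level of the RRM genes was higher in drought-CAM leaves than in re-watered leaves at every time. It was 3803, 4041 and 3928 CPM in the 3 CAM libraries of MD and 3090, 2673 and 2456 CPM in those of reC3. At ED it was 4449, 4614 and 4123 CPM in CAM and 3016, 2788 and 2706 CPM in reC3. The night libraries gave 4386, 4928 and 4478 CPM against 4029, 3773 and 3635 CPM at MN, and 3892, 3991 and 4027 CPM against 3548, 3181 and 2981 CPM at EN. The modes did not overlap at any of the 4 times. Over the 12 libraries of a mode the sum was 4222 ± 344 CPM in CAM and 3156 ± 490 CPM in reC3 (SD). The chloroplast members, among them AT2G37220, which took the most counts of any member and alone held 1.62% to 26.1% of the members' counts in a library, are given apart from the rest. In CAM the median summed level of the 8 chloroplast members went from 1887 CPM at ED to 686 CPM at EN, and in reC3 from 552 CPM at MD to 1320 CPM at MN. The fall from ED to EN in CAM came with AT2G37220 (mean 1009 CPM at ED and 79.2 CPM at EN) and AT3G52150 (341 and 36.9 CPM). In that contrast 3 of the 7 chloroplast members tested were called higher and 4 lower, beside 31.5% and 32.2% of all genes. AT1G60000, for example, had a mean of 286 CPM at ED and 410.0 CPM at EN. The median sum of the other 100 members was 2562 CPM at ED and 3253 CPM at EN in CAM. At EN the chloroplast sum was 643, 774 and 686 CPM in CAM, and in reC3 it was 1408 CPM in replicate 1 against 470 and 538 CPM in replicates 2 and 3. Replicate 1 also had the highest chloroplast sum of reC3 at MD, ED and MN, at 870, 952 and 1610 CPM. Its EN library was the one that correlated least with its partners, and EN values that rest on that library are given with and without it.

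**Figure D1:**
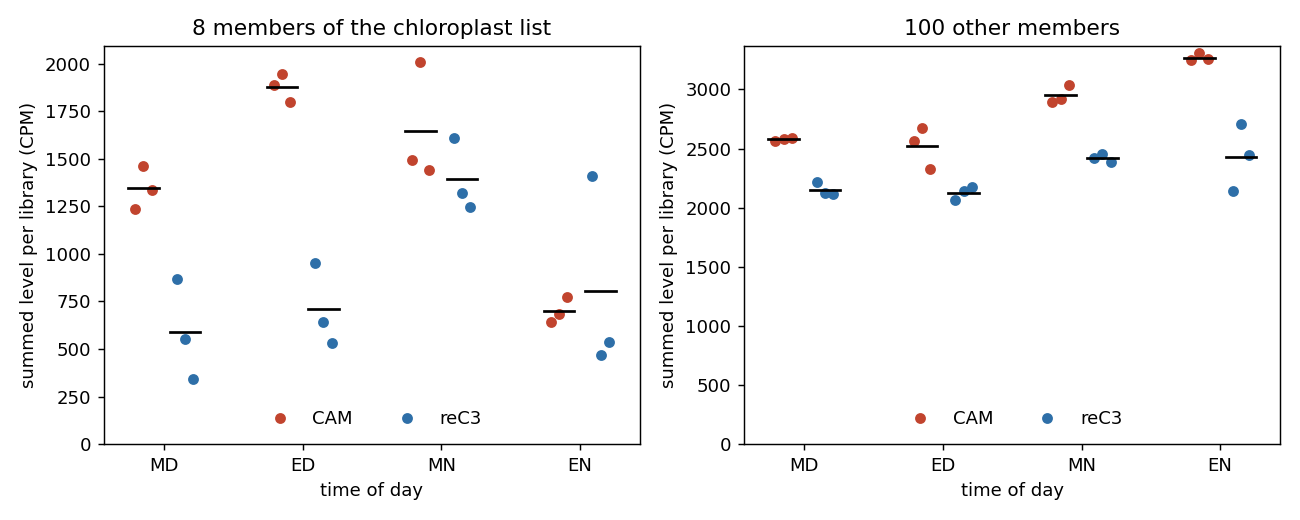
Summed level per library (y axis, CPM, linear from 0) of the 8 chloroplast RRM members and of the 100 other members at the 4 times of day (x axis), with a point per library and a black line at the group mean (n = 3). The other members were higher in every CAM library than in any reC3 library at each of the 4 times, whereas the chloroplast members were at 643 to 774 CPM in CAM at EN, inside the reC3 range of 470 to 1408 CPM.

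Many RRM genes were slightly higher in CAM and few were lower. In the average of the 4 times, 46 of the 76 were higher and 5 lower (edgeR quasi-likelihood test, adjusted p under 0.05 over all 14065 genes tested), beside 32.3% of all genes higher and 32.5% lower. That is 60.5% of the members higher and 6.58% lower. The rises were small: their log2 fold changes ran from 0.24 to 1.42, 41 of the 46 stayed under 1.5-fold, and 3 members passed 2-fold in this average, where 5.72% of all genes did so upwards. No member was at least 2-fold lower, against 13.6% of all genes. The median log2 fold change was 0.32 over the members and 0.01 over all genes, and the median size without regard to sign was 0.34 and 0.42, so the typical member differed between modes by no more than the typical gene. The difference was positive in 62 members and negative in 14, as the plot of average differences shows.

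**Figure D2:**
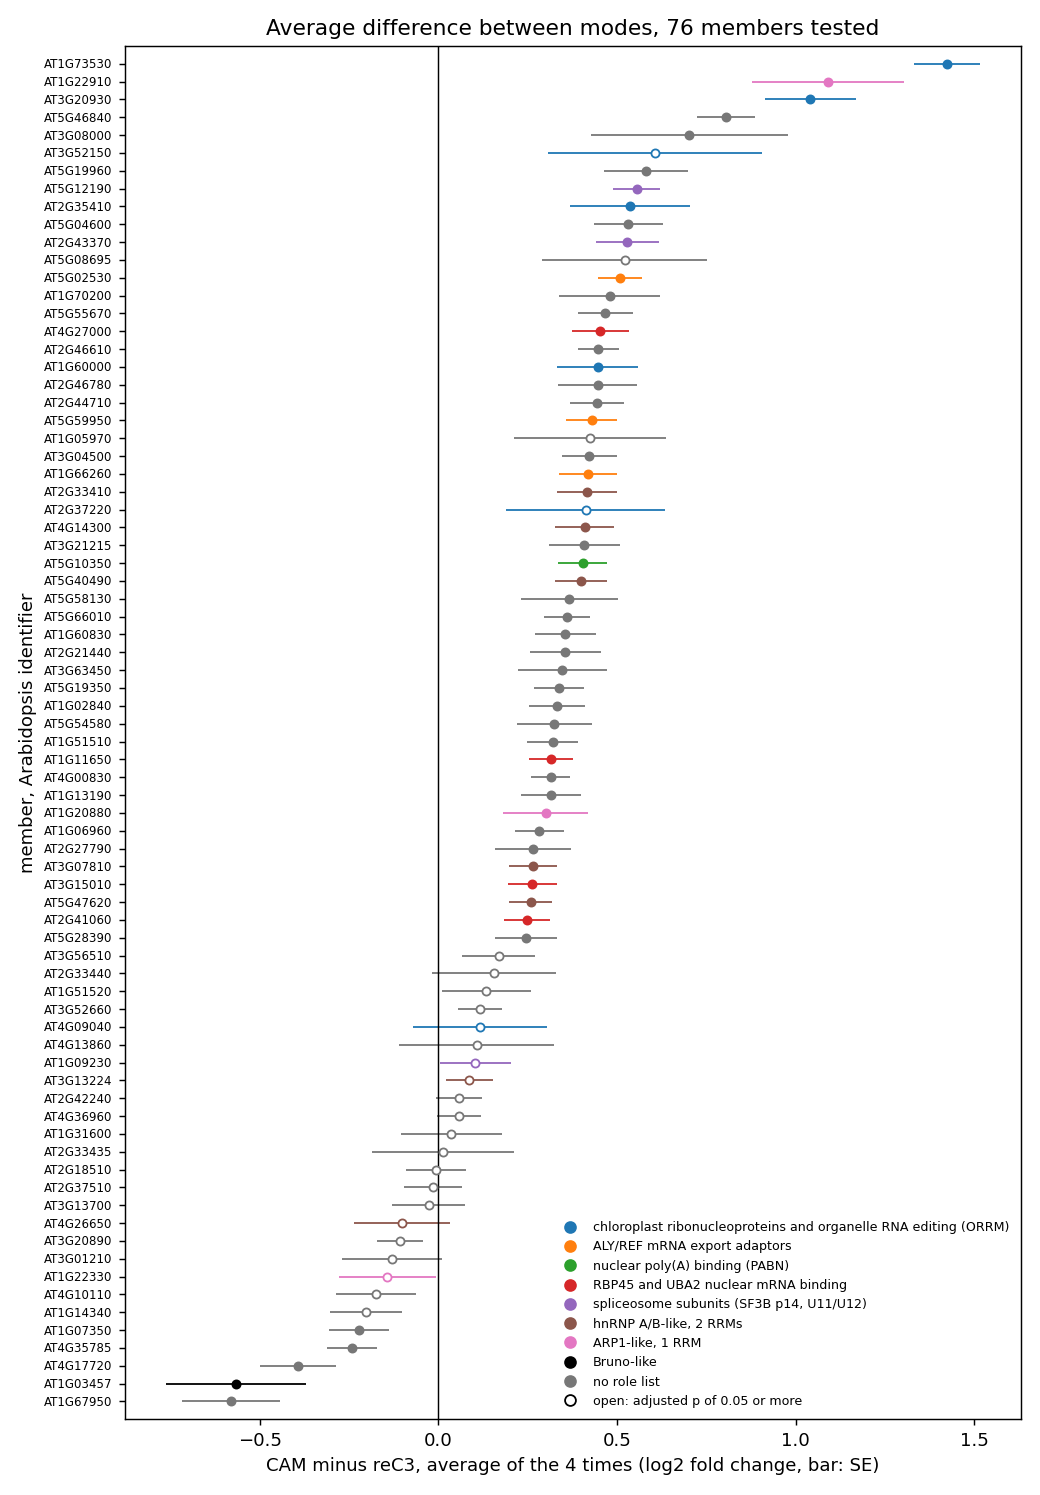
Log2 fold change of CAM over reC3 in the average of the 4 times (x axis, bars are SE) for each of the 76 RRM genes tested (y axis), coloured by role and open where the edgeR adjusted p was 0.05 or more. The 46 called rises run from 0.24 to 1.42, and 5 genes were called lower.

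At single times the members called higher outnumbered those called lower each time. At MD 21 were higher and 3 lower, beside 22.7% and 21.3% of all genes. At ED 26 were higher and 5 lower, beside 21.5% and 23.9%. At MN 21 were higher and 2 lower, beside 18.1% and 20.5%, and at EN 30 were higher and 6 lower, beside 24.1% and 29.2%. Scaling by library totals alone, which shifts the median of all genes by −0.21 at ED and 0.21 at EN, gave 12 higher and 3 lower at MD, 11 and 8 at ED, 7 and 2 at MN, and 40 and 4 at EN. With RLE scaling 13 members were higher at MD. The share of all genes called was counted with TMM and all libraries only. Counts under another scaling or with a library left out therefore have no share beside them. Without CAM ED replicate 2 the rises at ED came to 17, without reC3 MN replicate 3 those at MN came to 12, and those at MD came to 12 when CAM MD replicate 1, CAM MN replicate 2 or reC3 MD replicate 3 was left out. Without reC3 EN replicate 1, 27 members were higher and 4 lower at EN. At least 2-fold and called were 3 members higher and 1 lower at MD (8.6% and 14.1% of all genes), 9 and 2 at ED (8.93% and 14.1%), 2 and 0 at MN (6.59% and 11.8%) and 7 and 4 at EN (11.1% and 18.6%). Counted by groups that did not overlap, 34 members were higher and 4 lower at MD (30.6% and 24.9% of all genes), 36 and 8 at ED (28.9% and 29.8%), 35 and 7 at MN (27% and 29.4%) and 30 and 4 at EN (24.7% and 27.9%). Called higher at all 4 times were 3 members, AT1G73530, AT5G12190 and AT5G46840, a share of 3.95% beside 4.65% of all genes, and none was lower at all 4 times, against 7.86%. The MD call of AT5G46840 was lost with DESeq2, RLE scaling, library totals, no filter, the replicate block and the 6 compared libraries alone. Members higher at 3 or more times numbered 12, beside 11% of all genes, and none was lower at 3 or more times, against 15%. The sign was positive at all 4 times in 34 members, called or not, against 21.8% of all genes, and negative in 1, against 23.1%. The mean level was highest in a CAM group for 60 of the 76 members, and lowest in a reC3 group for 51. Across genes, the highest group mean lay in CAM for 55% and the lowest in reC3 for 45.6%.

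**Figure D3:**
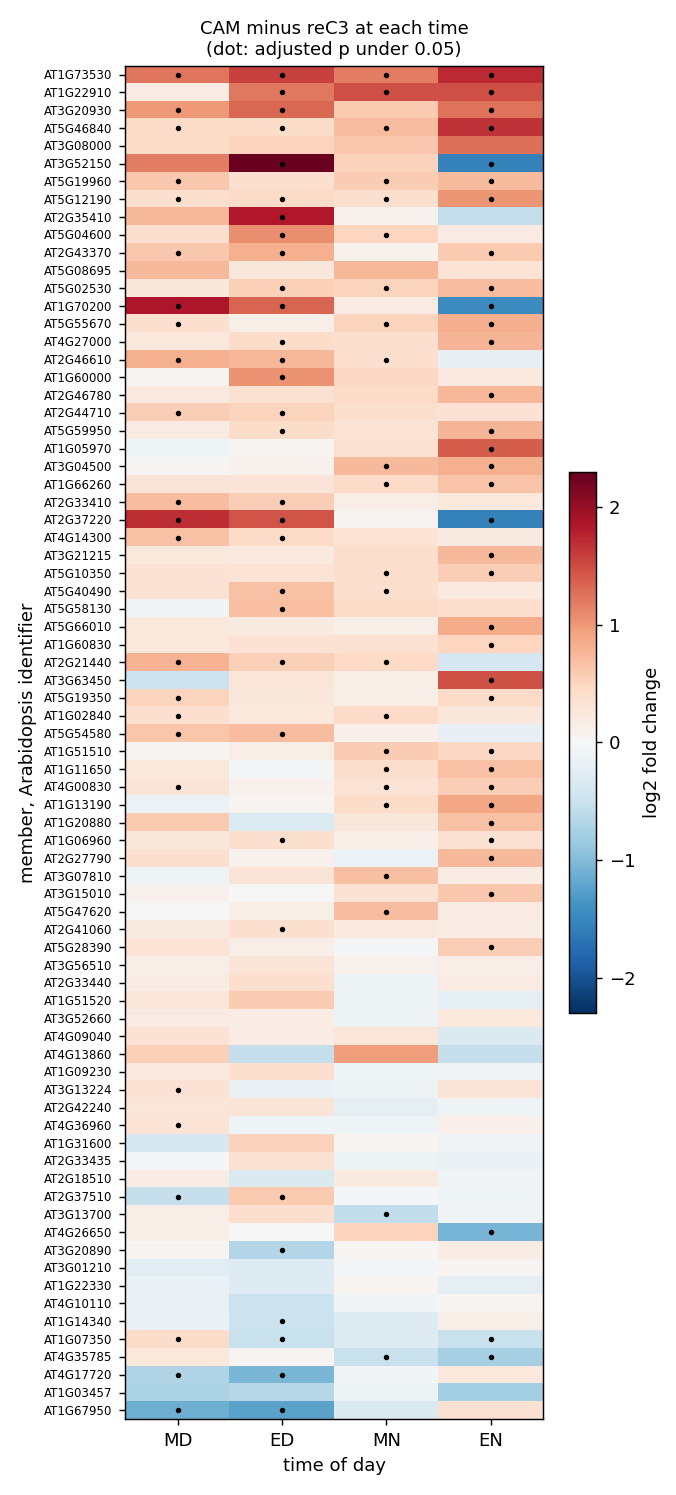
Log2 fold change of CAM over reC3 (colour, red higher in CAM) for each of the 76 RRM genes (y axis, ordered by the average difference) at the 4 times of day (x axis), with a dot where the edgeR adjusted p was under 0.05. The upper rows are red at most times, while AT1G70200, AT2G37220 and AT3G52150 turn from red at ED to blue at EN, in AT2G37220 and AT3G52150 not called once reC3 EN replicate 1 is left out.

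Chloroplast members had the 2 largest average rises among members of at least 5 CPM. Nuclear-encoded RRM proteins of chloroplasts bind organelle transcripts and are needed for their editing, processing and stability. The list drawn up for them holds 8 members, of which 7 were tested. In the average 4 were higher and none lower, beside 32.3% and 32.5% of all genes, with a median log2 fold change of 0.54. AT1G73530 is known as ORRM6, an RNA editing factor of Arabidopsis chloroplasts. In CAM its level was 39.2, 31.6 and 38.9 CPM at MD, 52.1, 43.6 and 49.4 CPM at ED, 55.2, 45.3 and 55.7 CPM at MN and 77.2, 57.2 and 99.002 CPM at EN. In reC3 it was 17.1, 16.3 and 13.7 CPM, 13.95, 16.8 and 17.98 CPM, 26.9, 22.1 and 20.2 CPM and 27.4, 19.5 and 23.8 CPM at the same times. Each CAM library lay above every reC3 library, whatever the time of day. The average log2 fold change was 1.42 ± 0.09 (SE, edgeR adjusted p = 1.01e-11), the largest among the 76 members, and it ran from 1.18 at MN to 1.72 at EN.

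AT3G20930, annotated in the deposited table as an RRM protein that also belongs to the RNA-editing-interacting family and sets the extent of editing at many plastid sites, rose as well. Its CAM levels were 12.5, 15.5 and 15.4 CPM at MD, 27.2, 28.999 and 23.2 CPM at ED, 41.7, 34.8 and 42.04 CPM at MN and 40.7, 41.5 and 65.9 CPM at EN. The reC3 levels were 10.3, 7.94 and 3.95 CPM, 12.4, 10.997 and 8.34 CPM, 28.01, 25.1 and 25.2 CPM and 19.6, 14.7 and 27.5 CPM. The modes did not overlap at any of the 4 times, and each mode was higher at night than in the light of the same sequencing set. The average difference was 1.04 ± 0.13 (edgeR adjusted p = 2.69e-07), with the difference at MN, 0.60 ± 0.24, missing the threshold (adjusted p = 0.0516).

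Most of the remaining chloroplast members were high in CAM at ED and showed no rise at EN. AT2G37220, a chloroplast RNA-binding protein that the deposited table lists as a substrate of a bacterial ADP-ribosylating effector, stood at 740.4, 898 and 802 CPM in CAM at MD and 1036, 1072 and 918 CPM at ED, against 376, 232 and 145 CPM and 512, 337 and 264 CPM in reC3. At MN it stood at 763, 1187 and 764 CPM in CAM and 1051, 795 and 751 CPM in reC3, and at EN at 65.1, 107 and 65.3 CPM and 482, 88.4 and 128 CPM. The modes were apart at MD and ED and overlapped at MN and EN, and at EN reC3 replicate 1 stood far above its partners. The log2 difference was 1.70 ± 0.46 at MD, 1.44 ± 0.45 at ED and −1.55 ± 0.46 at EN (edgeR adjusted p = 0.00477, 0.0131 and 0.00718), and its average missed the threshold (0.41 ± 0.22, adjusted p = 0.111). The negative difference at EN rested on reC3 replicate 1: without that library it was −0.45 ± 0.33 (adjusted p = 0.275), and without reC3 ED replicate 3 the ED difference was not called (adjusted p = 0.063). The average was called without reC3 EN replicate 1 (0.69 ± 0.15, adjusted p = 0.000448).

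AT3G52150, a plastid ribosome-associated protein known as PSRP2, varied widely between reC3 replicates. Its reC3 libraries held 169.8, 91.7 and 37.1 CPM at MD and 261, 25.5 and 40.9 CPM at EN, while the CAM libraries held 215, 233 and 228 CPM and 38.4, 36.97 and 35.2 CPM. At ED it was 311, 351 and 361 CPM in CAM against 111, 57.3 and 43.6 CPM in reC3, without overlap, a log2 difference of 2.27 ± 0.62 (edgeR adjusted p = 0.00556) and the largest of any member at a single time. The call at EN, −1.56 (adjusted p = 0.0397), came with libraries that overlapped. Without reC3 EN replicate 1 the EN difference turned to 0.15 ± 0.44 (adjusted p = 0.808) and the average, 0.61 ± 0.30 with all libraries (adjusted p = 0.0827), was called at 1.03 ± 0.20 (adjusted p = 0.00016). AT2G35410, located in the chloroplast stroma per the table, was higher at ED by 1.84 ± 0.35, at 73.4, 66.7 and 84.01 CPM against 31.03, 18.8 and 12.3 CPM. AT1G60000, placed in the chloroplast by the table, was higher at ED by 1.03 ± 0.23, with 298, 293 and 268 CPM against 161, 134 and 125 CPM, and its average of 0.45 ± 0.11 (adjusted p = 0.00151) did not pass in MD and MN alone (adjusted p = 0.155). AT4G09040 did not pass the test between modes at any time, with an average of 0.12 ± 0.19 (adjusted p = 0.606), and without reC3 EN replicate 1 it was called higher at EN, by 0.81 ± 0.32 (adjusted p = 0.0379), and in the average, by 0.40 ± 0.12. AT1G01080 had 1 count in all.

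Of the 7 tested chloroplast members, 3 were called higher at midday, 6 at dusk and 1 at midnight. At the end of the night 2 were higher and 2 lower. Of all genes, 22.7%, 21.5% and 18.1% were higher at MD, ED and MN, and at EN 24.1% were higher and 29.2% lower. The interaction of MN against MD was not called for any of the 7 (edgeR adjusted p from 0.0681 to 0.970). No change of the difference from midday to midnight is therefore shown by that test. The 2 lower at EN were AT2G37220 and AT3G52150, neither of them called without reC3 EN replicate 1, and the 2 higher there were AT1G73530 and AT3G20930. AT1G70200, outside the list but also placed in the chloroplast by the table and known in Arabidopsis as an RRM protein needed for chloroplast ribosomal RNA, had the same signs as AT2G37220 at all 4 times. It held 26.1, 19.3 and 22.8 CPM in CAM at MD against 6.35, 5.39 and 6.89 CPM in reC3, and at ED 58.1, 68.9 and 75.96 CPM against 32.1, 25.6 and 22.6 CPM. At MN the groups overlapped, at 17.5, 28.2 and 18.2 CPM and 18.9, 19.6 and 17.5 CPM, and at EN CAM was the lower, at 2.39, 3.41 and 2.65 CPM against 13.7, 5.32 and 4.83 CPM. The log2 difference went from 1.86 ± 0.28 at MD and 1.34 ± 0.25 at ED to −1.47 ± 0.34 at EN (edgeR adjusted p = 1.56e-05, 0.000143 and 0.000959). Without reC3 EN replicate 1 its EN difference was smaller and still called, at −0.84 ± 0.29 (adjusted p = 0.0227). AT5G54580, a member without a location in the table, was also higher at MD and ED, by 0.65 ± 0.20 and 0.71 ± 0.19, and not at EN (−0.18 ± 0.24, adjusted p = 0.539), with the MD call lost without reC3 MD replicate 3 (adjusted p = 0.0814).

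**Figure D4:**
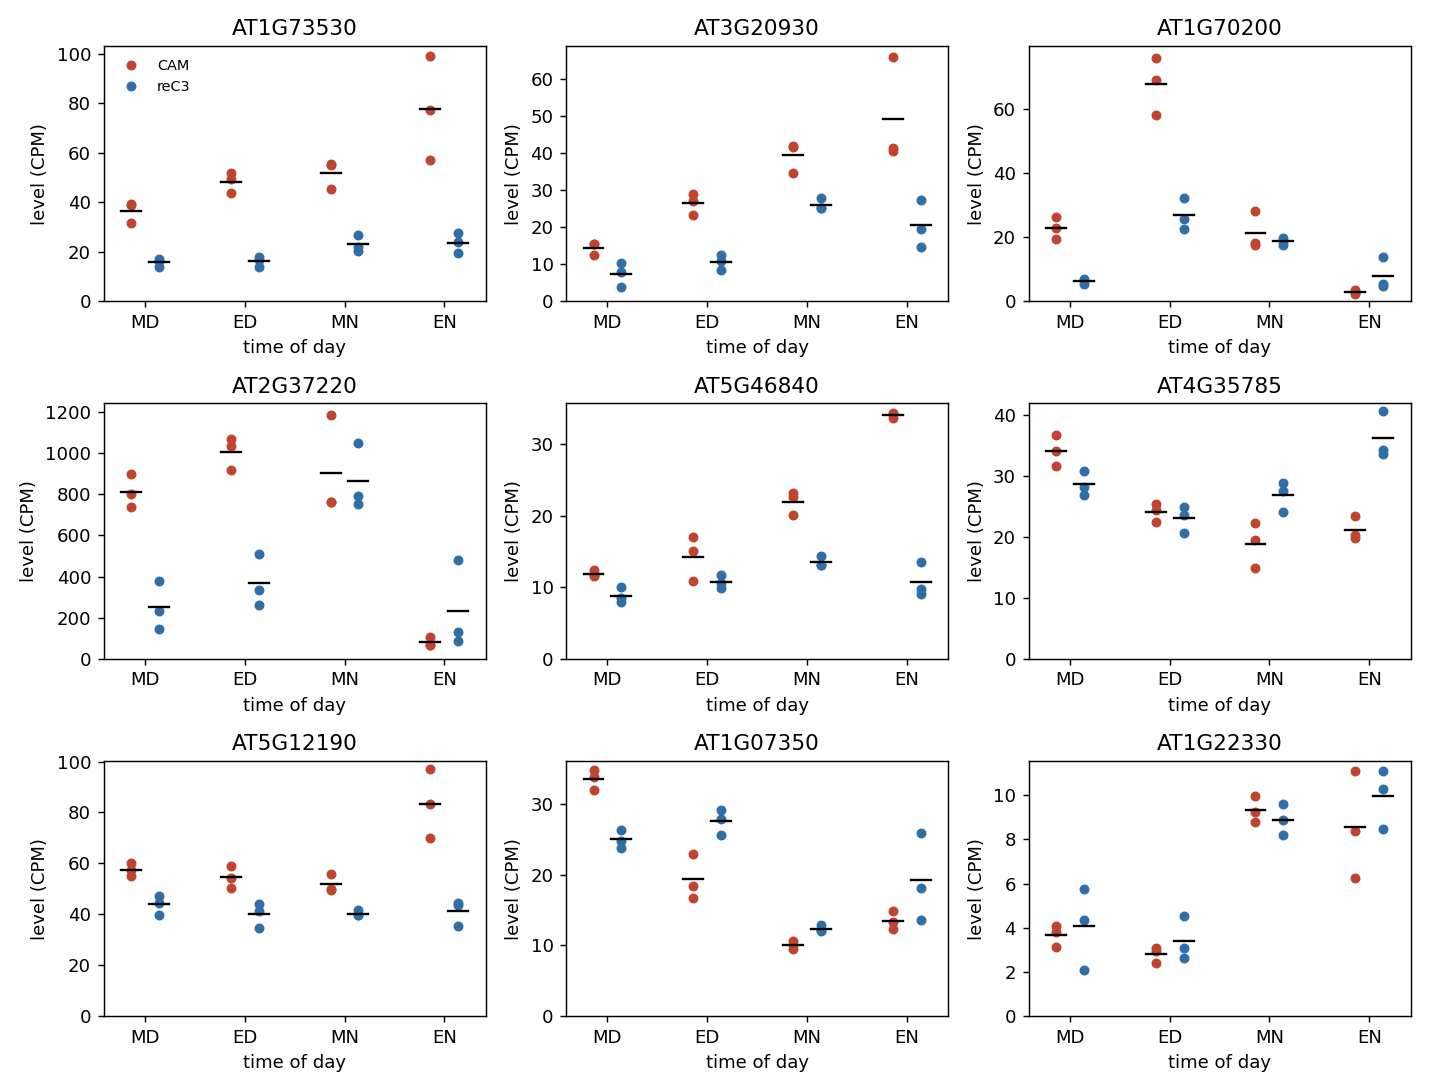
Level in each library (y axis, CPM, linear from 0) at the 4 times of day (x axis) for 9 RRM genes, with a point per library and a black line at the group mean (n = 3). AT1G73530 is higher in every CAM library than in any reC3 library, AT1G70200 is higher in CAM at MD and ED and lower at EN, and AT1G22330 is at 2.097 to 5.74 CPM at MD and ED and at 6.25 to 11.1 CPM at MN and EN in both modes.

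Among members that build or steer the spliceosome, some were higher in CAM and others were not. The list of core spliceosomal members holds 3 tested genes, of which 2 were higher in the average and none lower, beside 32.3% and 32.5% of all genes. AT5G12190, the p14 subunit of the SF3B complex that contacts the branch point of introns, was at 60.1, 55.1 and 57.6 CPM in CAM at MD, 58.9, 54.4 and 50.3 CPM at ED, 55.9, 50.1 and 49.7 CPM at MN and 83.1, 69.8 and 97.1 CPM at EN. In reC3 it was at 47.3, 44.6 and 39.7 CPM, 34.5, 41.3 and 44.1 CPM, 39.6, 41.5 and 39.7 CPM and 35.5, 44.5 and 43.8 CPM. The 2 modes were apart at all 4 times, with reC3 nearly level and CAM higher at EN than at ED. The average difference was 0.55 ± 0.07 (edgeR adjusted p = 1.84e-07), and that at EN 1.01 ± 0.13.

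AT2G43370, a protein of the U11/U12 particle that recognises minor introns, was higher by 0.53 ± 0.09 in the average (edgeR adjusted p = 2.02e-05) and showed no called difference at MN (0.08 ± 0.17). The second U11/U12 member, AT1G09230, averaged 0.10 ± 0.10 (adjusted p = 0.366). AT2G18510, which resembles the SF3B subunit SAP49 and is listed in the table as an embryo-defective locus, did not pass the test between modes at any time (average −0.01 ± 0.08, adjusted p = 0.955) but varied widely between times. It held 25.1, 25.3 and 24.6 CPM at ED and 6.28, 4.12 and 5.3003 CPM at EN in CAM, and 30.4, 34.8 and 28.8 CPM and 4.14, 6.73 and 5.66 CPM in reC3. The EN libraries lay far below those of ED in both modes.

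Serine/arginine-rich (SR) proteins guide splice site choice, and SR34, RS31a and SR45a are among the members. AT1G02840, SR34, was higher in CAM by 0.33 ± 0.08 in the average (edgeR adjusted p = 0.000737), but was not called in ED and EN alone (0.25, adjusted p = 0.135). AT2G46610, RS31a, was higher at MD, 45.4, 43.4 and 49.5 CPM against 23.2, 27.4 and 27.6 CPM, and at ED, 61.4, 62.4 and 63.1 CPM against 38.1, 32.5 and 38.9 CPM. At EN the order was turned, 36.6, 36.1 and 37.3 CPM in CAM below 37.98, 42.4 and 45.4 CPM in reC3. The groups did not overlap at these times. The differences at MD and ED, 0.82 ± 0.12 and 0.77 ± 0.11, and that at MN, 0.39 ± 0.12, passed the edgeR test (at MN not without reC3 MN replicate 2, adjusted p = 0.067), and that at EN, −0.19 ± 0.12, did not (adjusted p = 0.169). AT1G07350, SR45a, which the table links to alternative splicing under stress, was higher in CAM at MD, with 31.98, 34.8 and 33.8 CPM against 23.8, 26.4 and 24.8 CPM, and lower at ED, with 18.3, 16.8 and 22.9 CPM against 25.6, 27.9 and 29.1 CPM. The groups overlapped at neither time. At EN it was again called lower (−0.51 ± 0.17) with groups that overlapped. Its average was −0.22 ± 0.08 (edgeR adjusted p = 0.0255), 1 of the 5 called falls, but it was 0.06 in MD and MN alone (adjusted p = 0.559) and was not called without CAM ED replicate 2 (adjusted p = 0.0529) or reC3 EN replicate 2 (adjusted p = 0.0656). Under edgeR the average was also not called with library totals (adjusted p = 0.0814) or without the EN or the ED time point (0.127 and 0.504). The EN call was lost without CAM EN replicate 2 (adjusted p = 0.0627) or reC3 EN replicate 2 (adjusted p = 0.221). It was also lost with library totals (0.409) and in the 6 compared libraries alone (0.179).

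Tested members of mRNA export and of the 3′ end of transcripts were higher in CAM in the average. The interaction of mode and time was called in 0 of the 3 export members and in 0 of 1 nuclear poly(A)-binding member, beside 46.8% of all genes. No preference for a time is therefore shown. ALY proteins are adaptors that hand spliced mRNA to the export receptor, and all 3 tested here were higher in the average. Called at EN were 3, at ED and MN 2 each, and at MD none. The shares of all genes higher were 32.3% in the average and 24.1%, 21.5%, 18.1% and 22.7% at EN, ED, MN and MD. AT5G02530 (ALY2) was at 105, 99.97 and 106 CPM in CAM and 52.3, 69.1 and 68.4 CPM in reC3 at EN, without overlap, and its average was 0.51 ± 0.06 (edgeR adjusted p = 1.86e-07). AT5G59950 (ALY1) averaged 0.43 ± 0.07 and AT1G66260 (ALY3) 0.42 ± 0.08, with adjusted p of 1.58e-05 and 9.98e-05. AT5G10350, a nuclear poly(A)-binding protein, was at 216, 208 and 237 CPM in CAM and 163, 152 and 133 CPM in reC3 at EN, and averaged 0.40 ± 0.07 (adjusted p = 2.50e-05).

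The 4 RBP45 and UBA2 members, nuclear proteins that bind mRNA rich in uridine, were all higher in the average, 3 of them at EN and none at MD. The shares of all genes higher were 32.3%, 24.1% and 22.7%. AT4G27000, RBP45C, was higher at EN, from 202, 327 and 301 CPM in reC3 to 469, 445 and 512 CPM in CAM at EN, and it averaged 0.45 ± 0.08 (edgeR adjusted p = 3.57e-05). AT1G11650, RBP45B, was at 205, 203 and 198 CPM against 107, 139 and 133 CPM at EN and differed by 0.32 ± 0.06 in the average. AT2G41060 and AT3G15010, UBA2b and UBA2c, averaged 0.25 ± 0.07 and 0.26 ± 0.07, neither called in ED and EN alone (edgeR adjusted p = 0.0615 and 0.0511). In these genes reC3 EN replicate 1 was the lowest reC3 library for AT4G27000, AT1G11650 and AT3G15010 and not for AT2G41060. AT1G51510, Y14 of the exon junction complex, which marks spliced mRNA, was higher by 0.32 ± 0.07 in the average. It was called at MN and EN and not at MD or ED. The interactions of MN against MD and of EN against ED were not called for it (edgeR adjusted p = 0.0666 and 0.224).

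Members resembling hnRNP A/B proteins, which pair 2 RRMs and package nascent RNA, were higher in the average in 5 of 7 tested, with none lower and a median of 0.27. Of all genes 32.3% were higher and 32.5% lower in it. Their times differed. AT4G14300 and AT2G33410 were higher at MD, by 0.68 ± 0.17 and 0.71 ± 0.17, and at ED, by 0.44 ± 0.16 and 0.57 ± 0.17, and neither was called at night. For both genes the interaction of MN against MD and that of EN against ED were not called (edgeR adjusted p from 0.0922 to 0.453). No preference for day over night is therefore shown for them by those tests. At ED both lost their call without CAM ED replicate 2 (edgeR adjusted p = 0.166 and 0.0595), and AT4G14300 also without reC3 ED replicates 2 or 3 (0.0936 and 0.0857). AT5G47620 and AT3G07810 were higher at MN by 0.72 ± 0.12 and 0.70 ± 0.14, with 60.3, 59.5 and 64.6 CPM against 38.7, 39.4 and 34.1 CPM for the first of them. They did not pass at MD, ED or EN. AT5G40490 was higher at ED, by 0.67 ± 0.15, and at MN, by 0.38 ± 0.15, the latter not called without any 1 of the 6 MN libraries or reC3 ED replicate 2 (edgeR adjusted p from 0.0501 to 0.147). AT4G26650 was called lower at EN (−1.06 ± 0.27), where reC3 replicate 1 held 50.01 CPM against 20.03 and 27.1 CPM in its partners and 13.8, 21.3 and 10.98 CPM in CAM, so the groups overlapped. Without that library the difference was −0.61 ± 0.23 (edgeR adjusted p = 0.0362). The remaining tested gene, AT3G13224, had the smallest ratio of highest to lowest group mean of all tested members, 1.39, and AT1G17640 had 19 counts in all.

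Several members with no role stated in the table were among the largest rises. AT5G46840 was at 11.7, 11.6 and 12.4 CPM at MD, 15.03, 16.995 and 10.9 CPM at ED, 23.2, 20.1 and 22.7 CPM at MN and 34.4, 33.7 and 34.3 CPM at EN in CAM. In reC3 it was at 9.98, 7.94 and 8.55 CPM, 10.6, 9.84 and 11.8 CPM, 13.1, 13.1 and 14.4 CPM and 9.02, 13.5 and 9.82 CPM. CAM was higher at MN than at MD and at EN than at ED, reC3 was higher at MN than at MD and level from ED to EN, and the modes overlapped at ED only. The log2 difference was 0.44 at MD and 1.66 ± 0.16 at EN, and the average 0.81 ± 0.08 (edgeR adjusted p = 1.47e-08). The call at MD was lost with DESeq2 (adjusted p = 0.0973) and, under edgeR, with RLE scaling (0.0706), library totals (0.114), no filter (0.0506), the replicate block (0.0556) and the 6 compared libraries alone (0.125), and also without any 1 of the 3 CAM MD libraries, reC3 MD replicates 2 or 3, or CAM MN replicate 2 (edgeR adjusted p from 0.0692 to 0.142). AT5G04600, located in the nucleolus per the table, was higher at ED and MN, at ED with 83.4, 72.1 and 47.1 CPM against 27.3, 34.5 and 34.8 CPM, and averaged 0.53 ± 0.10. AT5G19960, which the table places near glycine-rich RRM proteins, averaged 0.58 ± 0.12 (adjusted p = 0.000163), AT5G55670 0.47 ± 0.08 (adjusted p = 1.37e-05) and AT2G46780 0.45 ± 0.11 (adjusted p = 0.00118), the last of which did not pass in MD and MN alone (adjusted p = 0.0609).

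AT3G04500 was higher in CAM at night and not by day, at 72.1, 57.5 and 60.2 CPM against 45.4, 33.9 and 33.6 CPM at MN and 97.4, 91.01 and 118 CPM against 48.1, 65.8 and 59.7 CPM at EN, differences of 0.75 ± 0.16 and 0.82 ± 0.15 (edgeR adjusted p = 0.00057 and 0.000139). AT3G63450 was higher at EN by 1.46 ± 0.27, with 11.7, 10.5 and 7.004 CPM against 3.95, 3.72 and 2.995 CPM. CAM and reC3 libraries did not overlap in these 3 comparisons. AT4G00830, LIF2, an Arabidopsis partner of the Polycomb protein LHP1, was higher at MD, MN and EN and averaged 0.31 ± 0.05 (adjusted p = 2.86e-05). AT5G58130, ROS3, which the table describes as required for DNA demethylation, averaged 0.37 ± 0.14 (adjusted p = 0.022), which was not called without CAM MD replicate 2 (adjusted p = 0.0587) or in MD and MN alone (adjusted p = 0.443).

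The 5 members called lower in CAM in the average were AT1G67950, AT1G03457, AT4G17720, AT4G35785 and AT1G07350. AT1G67950 and AT4G17720, both annotated in the table with an aldo/keto reductase signature beside the RRM, were called lower at MD and ED and not at MN or EN. The interaction of EN against ED was called for both (edgeR adjusted p = 0.00248 and 0.00192). That of MN against MD was not (0.152 and 0.149), so no difference between midday and midnight is shown for them. AT4G17720 was at 44.8, 40.3 and 45.4 CPM in CAM and 53.7, 69.9 and 86.4 CPM in reC3 at MD, and at 39.2, 36.5 and 38.8 CPM and 65.5, 71.8 and 101 CPM at ED. No CAM library reached a reC3 library at either time, and the differences were −0.69 ± 0.22 and −1.06 ± 0.21 (edgeR adjusted p = 0.0124 and 0.000388), the first not called without reC3 MD replicate 3 (adjusted p = 0.0844). AT1G67950 differed by −1.13 ± 0.29 and −1.22 ± 0.27, at 3.16, 2.61 and 3.36 CPM against 6.86, 5.67 and 8.99 CPM at ED. At EN both had positive differences that did not pass (0.25 and 0.36).

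AT4G35785, whose closest match in the table is SR45a, was lower in CAM at night, at 19.5, 22.2 and 14.9 CPM against 24.01, 28.8 and 27.6 CPM at MN and 19.7, 23.5 and 20.3 CPM against 33.7, 34.2 and 40.6 CPM at EN, without overlap. At MD it stood at 36.7, 31.6 and 34.1 CPM against 26.8, 28.2 and 30.9 CPM, a difference of 0.25 ± 0.14 that did not pass. The differences at night were −0.51 ± 0.14 at MN and −0.77 ± 0.14 at EN (edgeR adjusted p = 0.00667 and 0.000115), the first not called without CAM MN replicate 3 (adjusted p = 0.0608). AT1G03457, a Bruno-like protein whose Arabidopsis counterpart represses the flowering gene SOC1, was the 1 member lower with the same sign at all 4 times, and its average was −0.57 ± 0.20 (adjusted p = 0.0155). It was not called at any single time, its reC3 EN libraries held 26.3, 5.14 and 8.49 CPM (without the first its EN difference was 0.17 ± 0.30), and its average was not called in MD and MN alone, in ED and EN alone or without ED (adjusted p = 0.0554, 0.0841 and 0.0822). Further members called lower at 1 time were AT2G37510 at MD (−0.52 ± 0.17), AT3G20890 and AT1G14340 at ED (−0.67 ± 0.13 and −0.49 ± 0.19) and AT3G13700 at MN (−0.57 ± 0.20). Of these, AT2G37510 lost its call without CAM MD replicate 1 or reC3 MD replicate 2 (edgeR adjusted p = 0.0737 and 0.0982), AT1G14340 without CAM ED replicates 1 or 2, reC3 ED replicates 2 or 3 or any of 4 MN libraries (0.0501 to 0.177), and AT3G13700 without CAM MN replicates 1 or 2 or reC3 MN replicates 1 or 3 (0.0565 to 0.111).

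Whether the difference between modes itself changed with time was tested as the interaction of mode and time. It was called for 27 of the 76 members, beside 46.8% of all genes, a share of 35.5% among the members. The smallest p among members was that of AT1G70200 (edgeR adjusted p = 1.79e-05), followed by AT2G46610 (0.000131), AT5G46840 (0.000415), AT4G35785 (0.000757) and AT2G37220 (0.00122). Next came AT3G63450 (0.0019), AT3G20890 (0.00234) and AT2G35410 (0.0027). Scaled by library totals, the adjusted p of AT2G46610 was 0.108 and that of AT4G35785 0.0586. Within the libraries of MD and MN, an interaction test chosen after seeing the data (MN against MD) called 6 members, 7.89% beside 22.3% of all genes, among them AT1G70200 and AT4G35785 of these 8. Within those of ED and EN (EN against ED) it called 24 members, 31.6% beside 36.2% of all genes, and all 8 were among them. These genes did not share a pattern: AT5G46840 and AT3G63450 had their largest positive difference at EN, AT1G70200, AT2G37220, AT2G46610 and AT2G35410 had positive differences at MD and ED and a negative one at EN (for AT2G35410 0.08 without reC3 EN replicate 1), AT4G35785 was lower at night, and AT3G20890 was called at ED alone. Called higher at 1 time and lower at another were 5 members, AT1G70200, AT2G37220, AT3G52150, AT1G07350 and AT2G37510, beside 10.3% of all genes. Without reC3 EN replicate 1, AT2G37220 and AT3G52150 lost the call at EN that puts them among these. The largest average rise, in AT1G73530, came without a called interaction (adjusted p = 0.184).

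RRM genes also differed between times within a mode, in both directions. From MD to MN, 27 members were higher and 11 lower in CAM, beside 25.6% and 26.5% of all genes, and 25 were higher and 11 lower in reC3, beside 21.7% and 21.7%. Higher in both modes were 18, beside 12.7% of all genes, and lower in both were 7, beside 14.4%. None was higher in CAM and lower in reC3 or the reverse, which 0.917% and 0.974% of all genes were. From ED to EN, 32 members were higher and 22 lower in CAM, beside 31.5% and 32.2%, and 23 were higher and 18 lower in reC3, beside 29.1% and 28.8%. Higher in both modes were 18, beside 18.4% of all genes, and lower in both were 12, beside 19.7%. In opposite directions, 1 member, AT3G20890, was higher in CAM (0.36 ± 0.13) and lower in reC3 (−0.48 ± 0.13), beside 1.93% of all genes, with the CAM value at −0.09 by library totals. And 1, AT2G35410, was lower in CAM (−0.93 ± 0.33) and higher in reC3 (1.45 ± 0.35), beside 2.07%. Its reC3 EN libraries held 97.4, 34.4 and 39.3 CPM. With 1 library left out, its reC3 rise ran from 0.82 to 1.86 and stayed called. The CAM calls were lost without CAM ED replicate 1 or CAM EN replicate 1 in AT3G20890 (adjusted p = 0.0712 and 0.0614), and without CAM ED replicate 3 or CAM EN replicates 1 or 2 in AT2G35410 (adjusted p = 0.0592, 0.0537 and 0.0561). The balance between directions depends on scaling. By library totals alone, which shift the median of all genes by −0.46 (CAM) and −0.97 (reC3) from ED to EN, 12 were higher and 31 lower in CAM, and 0 higher and 51 lower in reC3. From MD to MN the same scaling, with shifts of 0.35 and 0.43, gave 36 higher and 6 lower in CAM and 38 higher and 2 lower in reC3. The share of all genes called by library totals was not counted. Without reC3 MN replicate 1, the falls from MD to MN in reC3 came to 7.

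**Figure D5:**
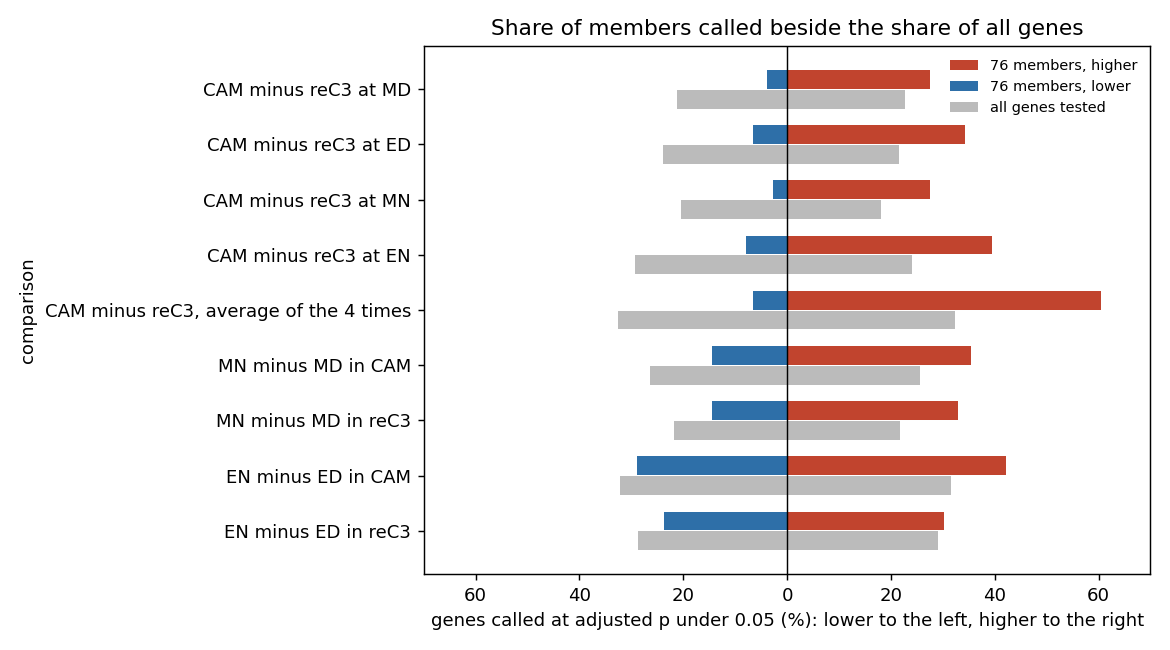
Share of genes called at adjusted p under 0.05 (x axis, %, lower to the left and higher to the right) among the 76 RRM genes tested and among all 14065 genes, for each comparison (y axis). In the average between modes 60.5% of the members were higher and 6.58% lower, and scaled by library totals alone no member was called higher from ED to EN in reC3. The shares of all genes shown are those with TMM scaling.

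With all libraries, the largest falls from ED to EN were in CAM. AT1G70200 fell from 58.1, 68.9 and 75.96 CPM to 2.39, 3.41 and 2.65 CPM, a log2 difference of −4.57 ± 0.31 (edgeR adjusted p = 2.94e-11), the largest between times in any member, against −1.76 ± 0.28 in reC3. With 1 library left out, the reC3 value ran from −2.40 to −1.50. At EN its reC3 replicate 1 held 13.7 CPM against 5.32 and 4.83 CPM. AT2G37220 differed by −3.67 ± 0.49 in CAM. In reC3, where replicate 1 stood apart at EN, it differed by −0.67 ± 0.45 and was not called (adjusted p = 0.208), while without that library it fell there too, with −1.77 ± 0.35 (adjusted p = 0.000186). AT2G21440, best matched in the table to an SC35-like splicing factor, was at 13.8, 20.1 and 13.96 CPM at ED and 1.495, 1.14 and 1.14 CPM at EN in CAM, and at 10.8, 11.7 and 10.1 CPM and 2.07, 1.595 and 1.33 CPM in reC3. It fell in both modes without overlap, with log2 differences of −3.64 ± 0.21 and −2.71 ± 0.21. AT4G09040 fell likewise, with −3.41 ± 0.41 in CAM and −2.91 ± 0.40 in reC3, and AT2G18510 with −2.26 ± 0.18 and −2.50 ± 0.18. The reC3 libraries of AT4G09040 at EN held 22.9, 3.37 and 6.32 CPM. Without the first of them its reC3 difference was −4.05, a larger fall than in CAM.

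Between the middle of the day and the middle of the night, AT1G07350 (SR45a) fell from the levels given above for MD to 10.001, 9.44 and 10.6 CPM in CAM and 12.1, 11.97 and 12.8 CPM in reC3, log2 differences of −1.74 ± 0.17 and −1.02 ± 0.17 (edgeR adjusted p = 2.54e-08 and 5.25e-05). AT2G18510 fell with differences of −1.18 ± 0.16 and −1.22 ± 0.16, AT1G14340 with −0.99 ± 0.20 in CAM, and AT3G01210 with −0.88 ± 0.27 in reC3, the last of which was not called when scaled by library totals (adjusted p = 0.176) or without reC3 MN replicate 2 (adjusted p = 0.0859). Rising from day to night were AT3G20930, by 1.45 ± 0.25 in CAM and 1.84 ± 0.27 in reC3, and AT1G60000, by 1.41 ± 0.23 in CAM. AT2G37220 was called higher by 1.79 ± 0.46 in reC3 and was not called in CAM (0.15 ± 0.44, adjusted p = 0.796). The interaction of MN against MD was not called for it (−1.63 ± 0.63, edgeR adjusted p = 0.0681), so no difference between the modes in this rise is shown.

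The members with a single RRM that resemble ARP1, an Arabidopsis protein responsive to abscisic acid, were compared between day and night. The list holds 5 members, 3 of which were tested, and all 3 rose in CAM both from MD to MN (median 1.34) and from ED to EN (median 1.61). In reC3 2 of the 3 rose from MD to MN (median 1.11) and 3 from ED to EN (median 1.14). Of all genes, 25.6% were higher from MD to MN and 31.5% from ED to EN in CAM, and 21.7% and 29.1% in reC3. In both CAM contrasts 4 of 6 guard cell markers were also called higher, with 1 lower from MD to MN and 0 from ED to EN. Of 4 epidermis markers, 3 were higher and 1 lower in both CAM contrasts. In reC3, 1 guard cell marker was higher and 1 lower from MD to MN, and 4 were higher and 0 lower from ED to EN. Epidermis markers in reC3 were higher in 3 from MD to MN and in 4 from ED to EN, and lower in 0. The shares of all genes lower from MD to MN and from ED to EN were 26.5% and 32.2% in CAM, and 21.7% and 28.8% in reC3. The summed level of the guard cell markers in CAM ranged over 48.3 to 54.8 CPM at MD and 115 to 131 CPM at MN, and that of the epidermis markers over 245 to 270.0 CPM and 446 to 562 CPM, and their part in the result was not tested. AT1G22330 held 3.12, 4.07 and 3.81 CPM at MD and 8.801, 9.94 and 9.24 CPM at MN in CAM, and 4.35, 2.097 and 5.74 CPM and 9.604, 8.85 and 8.22 CPM in reC3. At ED it held 2.4004, 2.97 and 3.09 CPM in CAM and 2.65, 4.51 and 3.11 CPM in reC3, and at EN 8.37, 11.1 and 6.25 CPM and 11.1, 10.3 and 8.49 CPM. The MN libraries lay above those of MD and the EN libraries above those of ED in both modes, and no difference between modes was called (average −0.14 ± 0.14, edgeR adjusted p = 0.368). From ED to EN the rise was 1.61 ± 0.28 in CAM and 1.52 ± 0.27 in reC3, the latter not called when scaled by library totals (0.55, adjusted p = 0.12). AT1G20880 rose by 1.88 ± 0.23 in CAM from ED to EN and by 1.66 ± 0.24 in reC3 from MD to MN. AT1G22910, at 4.19, 3.98 and 3.22 CPM in CAM and 1.13, 1.95 and 0.998 CPM in reC3 at EN, was among the 3 members past 2-fold in the average (1.09 ± 0.21) at a low level. ARP1 itself, AT3G54770, had 21 counts and AT1G33470 16 in all, too few to test.

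Across all contrasts between times, 11 members were higher at night in all 4 and 6 lower in all 4, beside 5.45% and 6.58% of all genes. The 11 were AT1G11650, AT1G20880, AT1G22330, AT1G60000, AT1G73530, AT2G41060, AT2G46780, AT3G20930, AT4G00830, AT4G14300 and AT4G27000. By library totals none of them was called higher from ED to EN in reC3. The 6 lower were AT1G02840, AT1G07350, AT1G14340, AT1G66260, AT2G18510 and AT2G21440. Besides those already described, AT3G04500 rose from ED to EN in CAM by 1.68 ± 0.16, while AT2G35410 and AT1G60000 rose from ED to EN in reC3 by 1.45 ± 0.35 and 1.32 ± 0.23, neither of which was called under library totals (adjusted p = 0.153 and 0.0791). With 1 library left out, the reC3 rises ran from 0.82 to 1.86 and from 0.99 to 1.48, and stayed called. The reC3 EN libraries of AT1G60000 held 497 CPM in replicate 1 against 284 and 272 CPM.

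Some members had group means within a narrow range. The median ratio of the highest to the lowest of the 8 group means, taken over both sequencing sets, was 2.16 over the members, from 1.39 to 24.01, and 3.57 over all genes. Among members with a mean of at least 20 CPM, the steadiest were AT3G13224, AT5G19350, AT3G52660, AT3G20890 and AT1G60830. AT3G13224, an hnRNP A/B-like gene, lay between 41.7 and 73.9 CPM in all 24 libraries, and AT3G52660, a LIF2-like gene, between 57.3 and 103 CPM. The first had a called difference at MD only (0.33 ± 0.13, edgeR adjusted p = 0.0467), which was lost with DESeq2 (adjusted p = 0.072) and in 11 of 24 fits that left out 1 library, CAM MD replicate 1 among them (adjusted p = 0.107), and the second at no time. A low ratio did not mean that modes agreed in each case, since AT5G19350 and AT1G60830 were higher in the average by 0.34 ± 0.07 and 0.36 ± 0.09. AT3G20890 was called lower in CAM at ED (−0.67) and had a called interaction of mode and time (edgeR adjusted p = 0.00234). No call at any of the 4 times was made for 17 of the 76 members, beside 19.1% of all genes.

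RRM proteins with a more specific description, which the choice leaves out, give a point of reference. Of 37 such genes tested, 18 were higher in the average and 5 lower, beside 32.3% and 32.5% of all genes. Their median log2 fold change was 0.21. SR splicing factors among them were higher in 6 of 11 and lower in none, U1, U2 and U2AF proteins in 5 of 6 and lower in none, and Mei2-like proteins were lower in 3 of 4 and higher in none. The difference between these genes and the 76 members was not tested.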

How the data were processed

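Gene counts of 24 leaf libraries (8 groups, 3 biological replicates each per the labels, prepared with a kit that does not mark strand) were analysed as deposited by the authors, as raw read counts per Arabidopsis identifier per the file headers. The submitters' processing notes name CASAVA 1.8.2 and the TAIR10 build. Which aligner and counter were used is not given in the sources used here. Another 40 columns of values in the table (normalised and averaged) were not used. The members and the gene lists were chosen with earlier results of these data known.

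Genes were filtered with filterByExpr, scaled by TMM and tested with the quasi-likelihood test of edgeR 4.0.16 (R 4.3.3), with a mean per group over all 24 libraries and Benjamini-Hochberg adjustment over 14065 genes at 0.05. Library totals ranged from 4310225 to 8756145. CPM are counts per 1000000 of the TMM-scaled library size, and log2 fold changes stand with their SE. The contrasts were CAM against reC3 at each time and on average, their interaction with time, and night against day within the MD and MN or the ED and EN libraries. The code was tested on simulated data.

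Genes were named by rule: the largest called changes of each contrast at 5 CPM or more (same sign at all 4 times for the average, no overlap otherwise), the 8 smallest interaction p, the 5 steadiest genes at 20 CPM or more, the 3 with the widest replicate spread and all members of the role lists. AT5G54580, AT1G51510, AT4G00830, AT5G58130 and AT1G02840, and some contrasts of the other genes, were chosen after their values were seen. Alternatives were RLE and library-total scaling, no filter, DESeq2 1.42.0, a fold minimum, fits on the compared libraries alone, a replicate block and each replicate left out. Leaving out the EN or the ED time point, and the interaction within MD and MN or within ED and EN, were chosen after seeing the data.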

Additional observations from a re-analysis of the deposited data

Results flagged for a closer look

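In 8 members the difference between CAM and reC3 itself differed between the 4 times (edgeR interaction test, adjusted over all genes tested, n = 3 libraries per group). They are those with the smallest p among members of at least 5 CPM. The interaction was called for 27 of 76 members, 35.5% beside 46.8% of all genes, and it spans the MD and MN libraries and the later ED and EN libraries, so time and set cannot be told apart in it. AT1G70200 had an adjusted p of 1.79e-05 in this edgeR test, AT2G46610 of 0.000131, AT5G46840 of 0.000415 and AT4G35785 of 0.000757. The edgeR adjusted p was 0.00122 for AT2G37220, 0.00190 for AT3G63450, 0.00234 for AT3G20890 and 0.00270 for AT2G35410. No explanation of these differences was tested.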

How the results depend on the processing

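Among the called values named in the text, 3 changed sign under an alternative: AT3G20890 from ED to EN in CAM was −0.0870 with library totals, AT1G07350 averaged 0.0602 in MD and MN alone, and AT3G52150 at EN ran from −2.03 to 0.15 with 1 replicate left out, the latter without reC3 EN replicate 1. With RLE scaling 13 members were higher at MD, and the share of all genes called was not counted under RLE scaling or library totals. With library totals alone 12 were higher at MD, 11 higher and 8 lower at ED and 7 higher at MN. Between times the same scaling gave 6 lower from MD to MN in CAM, 38 higher and 2 lower in reC3, 12 higher from ED to EN in CAM, and 0 higher and 51 lower in reC3, under edgeR in each case. Asking for 1.5-fold left 11 higher at MD, 15 higher and 3 lower at ED, 7 higher and 0 lower at MN, and 5 higher and 0 lower in the average. Between times it left 17 higher (MD to MN) and 19 higher (ED to EN) in CAM, and 16 higher and 6 lower from MD to MN in reC3. Fits on the 6 compared libraries alone gave 10 higher at MD, 8 lower at ED, 19 higher and 2 lower at EN, and 11 lower from ED to EN in reC3. The falls in the average came to 3 in MD and MN alone, 2 in ED and EN alone and 1 without ED, the last chosen after seeing the data. Chosen likewise, the interaction of MN against MD alone called 6 members and that of EN against ED alone 24.

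Leaving out 1 replicate gave 44 to 49 members higher and 4 to 6 lower in the average, and 22 to 31 with a called interaction. At MD 12 to 28 were higher and 2 to 4 lower, at ED 17 to 29 and 3 to 6, at MN 12 to 29 and 1 to 2, and at EN 27 to 37 and 4 to 7. From MD to MN 20 to 30 were higher and 8 to 12 lower in CAM, and 20 to 26 and 7 to 12 in reC3. From ED to EN 26 to 33 were higher and 17 to 22 lower in CAM, and 19 to 24 and 16 to 18 in reC3. Over all genes tested, replicate numbers showed no clear pairing of libraries. The correlation of deviations over 24 same-numbered pairs ran from −0.20 to 0.37, with 6 above 0.1. Of 24 libraries, 10 correlated best with their own number. In reC3, however, replicate 1 had the highest chloroplast sum at all 4 times, and the check was not run on members alone. With the replicate block, 48 members were higher and 5 lower in the average and 25 had a called interaction, and no count of calls moved over 1.5 times, but AT5G46840 at MD (edgeR adjusted p = 0.0556), AT3G13224 at MD (0.0528) and AT3G52150 at EN (0.0703) were no longer called. DESeq2 called 45 higher and 5 lower in the average and 33 interactions.

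With 3 libraries per group, depth limits the members of few counts: 8 with 1 to 82 counts could not be tested. Values rest on reads assigned across species.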
